A study of Mus musculus with 10 samples.

Results

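Cytosolic ribosomal protein genes encode the proteins that, with ribosomal RNA, build the small and the large subunit of the ribosome. The small subunit reads the mRNA, the large subunit joins amino acids, and each carries its own set of proteins, named Rps and Rpl. In blood formation these genes are known from Diamond-Blackfan anaemia and the 5q- syndrome, human conditions in which 1 copy of a ribosomal protein gene is lost and red cell production fails. Their mRNAs are short, abundant and known for a run of pyrimidines at the 5' end, through which their translation is controlled together. Members were chosen by symbol alone, as all genes whose symbol has the form Rps or Rpl with a number and at most one of the letters a, l or x, plus Rpsa, Rplp0, Rplp1 and Rplp2. This gave 83 of the 55573 genes counted, 32 of the small and 51 of the large subunit. Of these, 80 are annotated as protein-coding and 3 as pseudogenes (Rps4l, Rpl6l and Rpl32l).

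The RNA came from bone marrow hematopoietic stem and progenitor cells (HSPCs), the cells from which blood is renewed. Both groups were C57BL/6 mice, labelled as 16 weeks of age, that had received 500 cGy of radiation to the whole body and were studied 6 weeks afterwards. The 5 EGF libraries are from mice given epidermal growth factor, the ligand of the receptor Egfr, under the skin, and the 5 Saline libraries are from mice given saline by the same route, so irradiation is shared and only the injected agent differs. The labels give no dose or schedule of EGF and no sort gate, and they do not state whether different libraries are different mice, so the p-values here measure the spread between libraries, which may be technical.

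Libraries held between 6805106 and 8370820 counts, and the files gave a count to between 18734 and 20046 genes in 9 of them but to only 12731 in EGF replicate 5. All 13 HSPC markers listed for a check of the label were detected, meaning a count in some library. Their summed level was 2030 to 2249 CPM in EGF libraries and 1759 to 2050 CPM in Saline libraries. CPM are counts scaled to the library's size with TMM factors. Single markers could be low, as Procr had 0 to 108 counts in EGF and 51 to 91 in Saline libraries. Cd48 had 43 to 383 counts in EGF and 318 to 373 in Saline libraries. Of the 13 HSPC markers, 8 had a log2 fold change (EGF over Saline) above 0 and 5 below 0. At an unadjusted p under 0.05 by edgeR, 3 were higher and 0 lower, beside 6.14% and 2.73% of all genes tested. Each of the 9 other cell type lists had a lower summed level. Plasma cell markers, 7 of 7 detected, summed to between 167 and 922 CPM in EGF and between 687 and 1476 CPM in Saline libraries. Jchain made up most of that sum, with 97.4 to 784 CPM in EGF and 583 to 1321 CPM in Saline libraries. Of the 7 tested, 6 had a log2 fold change below 0 and 1 above 0, where 51.5% of all genes tested lay below 0. Neutrophil markers, 10 of 10 detected, summed to between 9.84 and 551 CPM in EGF and between 16.1 and 393 CPM in Saline libraries. EGF replicate 5 was the lowest library for plasma cells and the highest for neutrophils. Stroma and endothelium markers, 8 of 8 detected, summed to between 238 and 980 CPM in EGF and between 253 and 1230 CPM in Saline libraries, with 6 of 7 tested genes below 0. Mast cell, basophil and eosinophil markers, 6 of 6 detected, summed to between 245 and 402 CPM in EGF libraries. In Saline libraries their sum was between 278 and 512 CPM. Of the 6 tested, 4 had a log2 fold change above 0 and 2 below 0. At an unadjusted p under 0.05, 2 were lower, where 2.73% of all genes tested were lower. No marker of any list was called, and the part of other cells in the results was not tested. In bulk RNA, fewer cells of a type and less RNA per cell cannot be told apart.

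Ribosomal protein genes took a smaller share of the counts in most EGF libraries than in the Saline libraries, with an overlap. They took 3.72%, 3.92%, 3.47%, 3.26% and 3.15% of all counts in EGF replicates 1 to 5. In Saline replicates 1 to 5 they took 3.86%, 4.08%, 3.92%, 4.23% and 4.24%. EGF replicate 2 lay within the Saline range and the other 4 EGF libraries lay below it. Group means were 3.504 ± 0.319% in EGF and 4.067 ± 0.174% in Saline libraries (SD, n = 5 each). Wilson intervals at 95% on a single library's share reached at most 0.0143 percentage points to either side, and they cover counting error only. Small subunit genes took 1.40 ± 0.18% of counts in EGF and 1.66 ± 0.08% in Saline libraries (SD, n = 5 each), and large subunit genes took 2.11 ± 0.15% in EGF and 2.41 ± 0.10% in Saline libraries (SD, n = 5 each).

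**Figure D1:**
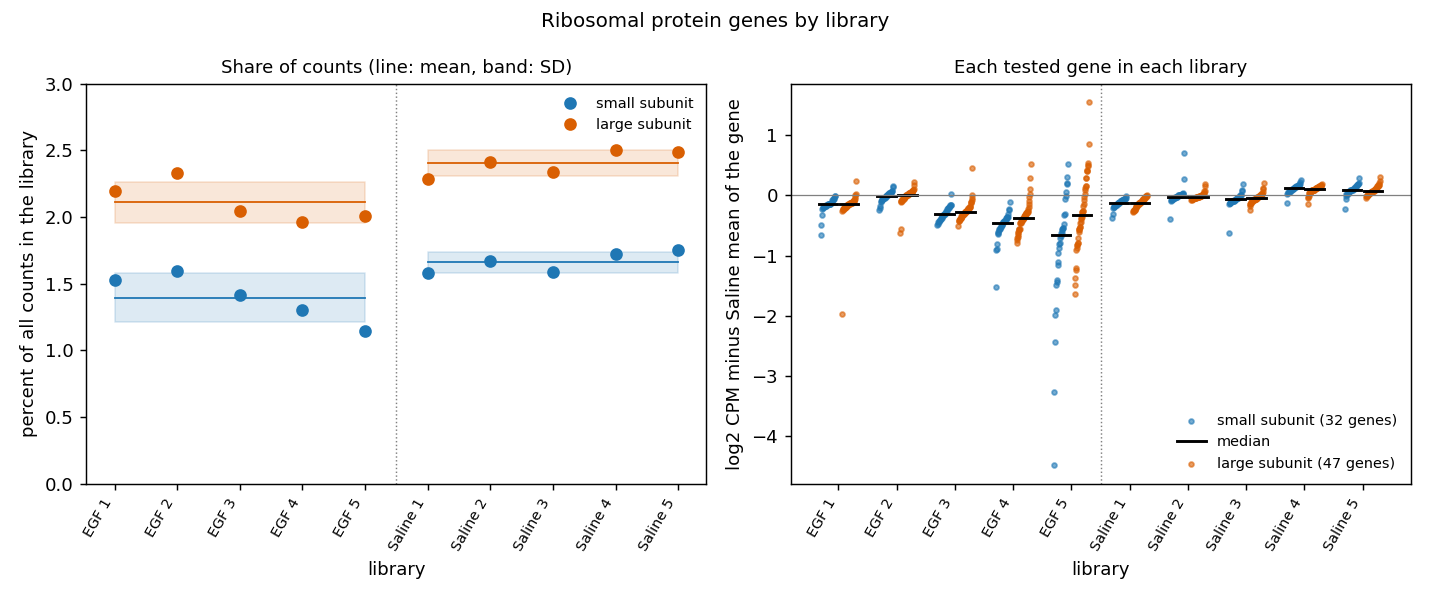
Left, the percent of each library's counts in small (blue) and large (orange) subunit genes, with the group mean as a line and the SD as a band (n = 5 each); right, each tested gene's log2 CPM (prior count of 2) minus its Saline mean, with the median per subunit as a black bar. EGF replicates 3 to 5 have medians between -0.65 and -0.28, and the genes of EGF replicate 5 spread more widely than those of any other library.

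No single ribosomal protein gene passed the test. edgeR's quasi-likelihood test kept 79 members (32 small, 47 large), of which 0 were called at an adjusted p under 0.05, and over all 12874 genes tested it called 0.00777% higher and 0.0% lower. The smallest adjusted p of a member was 0.552, shared by Rpl35 and the others near the top of the ranking. The direction of the fitted values was nevertheless largely one-sided. A log2 fold change below 0 (EGF over Saline) was fitted for 31 of 32 small and 44 of 47 large subunit genes, while 51.5% of all genes tested had one. Median log2 fold changes were -0.30 for the small subunit and -0.24 for the large subunit, beside -0.01 over all genes tested. At an unadjusted p under 0.05 the test had 24 members on the lower side (10 small, 14 large), where 2.73% of all genes were lower, and 0 members on the higher side, where 6.14% of all genes were higher.

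DESeq2, run on the same genes, also called 0 members (0.435% of all genes in either direction), with a smallest adjusted p of 0.0674 for Rpl35. It had 30 members lower at an unadjusted p under 0.05, against 3.61% of all genes. Without EGF replicate 5, the library with few genes detected, edgeR again called 0 of 79 members (0.0611% of all genes), with a smallest adjusted p of 0.165. In that fit 78 of 79 members lay below 0 (50.0% of all genes), the medians were -0.21 for the small and -0.20 for the large subunit, and 50 members (21 small, 29 large) had a p under 0.05 on the lower side before adjustment (7.39% of all genes). Without EGF replicates 3, 4 and 5, 73 of 79 members lay below 0 and both medians were -0.07, beside -0.004 over all genes. Those libraries had the lowest shares of counts in the members, so leaving them out moves the medians toward 0 by selection.

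Most members lay on the same side of their Saline mean within a library, EGF replicates 2 and 5 being the least uniform of the EGF group. Below their own Saline mean lay 76, 38, 76, 75 and 59 of the 79 tested genes in EGF replicates 1 to 5. In Saline replicates 1 to 5 the counts of genes were 78, 55, 63, 5 and 9. Saline replicates 4 and 5 were thus high for nearly all members and Saline replicate 1 low for nearly all. The median log2 difference of the small subunit from the Saline mean was -0.15, -0.01, -0.31, -0.46 and -0.65 in EGF replicates 1 to 5, against -0.12, -0.02, -0.07, 0.12 and 0.09 in Saline replicates 1 to 5. For the large subunit it was -0.14, 0.01, -0.28, -0.37 and -0.33 in EGF replicates, against -0.12, -0.03, -0.05, 0.10 and 0.07 in Saline replicates. By these medians EGF replicate 2 lay inside the Saline range and EGF replicate 1 just below it, while EGF replicates 3 to 5 lay further down.

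Groups did not overlap for 5 members, whose EGF libraries all lay below all Saline libraries (1.65% of all genes tested did so), and 0 members lay the other way (1.62% of all genes). Rpl35, a protein beside the exit of the peptide tunnel, had 278, 305, 275, 247 and 250 CPM in EGF replicates 1 to 5 and 317, 318, 328, 357 and 317 CPM in Saline replicates 1 to 5. Its means were 271 ± 24.0 CPM in EGF and 328 ± 17.3 CPM in Saline libraries (SD, n = 5 each), a log2 fold change of -0.27 (SE 0.08). Exons of other genes on the opposite strand cover 66.2% of its exonic bases, and without a stated strand setting their reads cannot be told apart there from those of Rpl35. Rps2, which lines the channel where mRNA enters the small subunit, had 541, 571, 449, 406 and 376 CPM in EGF and 574, 605, 583, 642 and 616 CPM in Saline libraries, with a log2 fold change of -0.37 (SE 0.12). Rpl8, a protein near the site of peptide bond formation, had 935, 1032, 836, 829 and 664 CPM in EGF and 1069, 1059, 1060, 1155 and 1078 CPM in Saline libraries, with a log2 fold change of -0.34 (SE 0.11). Rps2 lies on chromosome 17 from 24718116 to 24721929 and Rpl8 on chromosome 15 from 76904078 to 76906314 (GRCm38, plus strand). In all 3 the nearest libraries of the groups were close, such as 305 CPM in EGF replicate 2 and 317 CPM in Saline replicate 1 for Rpl35. The other two, Rpl13 and Rpl15, are large subunit proteins, Rpl15 being a gene of Diamond-Blackfan anaemia in humans. Rpl13 ranged from 341 to 442 CPM in EGF and from 448 to 483 CPM in Saline libraries. Rpl15, named after its values were seen, ranged from 113.6 to 182.6 CPM in EGF and from 182.9 to 196.6 CPM in Saline libraries, so that its groups all but touched. Without EGF replicate 5 there were 7 such members (2.36% of all genes tested).

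The start regions of some of these genes are shown for their pyrimidine run. Capitals mark the longest unbroken run of C and T that overlaps the stretch from 20 bases before to 30 bases after the start. Each sequence runs 5' to 3' from 35 bases before to 30 bases after the first start that RefSeq lists for the gene on GRCm38.p6. Rpl35, Rpl15 and Rpl13 are genes whose groups did not overlap, Rps6 is a well-known member of the class, and Rplp2, Rpl13a and Rps21 are genes whose level in EGF replicate 5 stood apart. They lie at chr2:39005102-39005166 on the minus strand (Rpl35), chr14:18270957-18271021 on the minus strand (Rpl15), chr8:123102315-123102379 on the plus strand (Rpl13), chr4:86857338-86857402 on the minus strand (Rps6), chr7:141447616-141447680 on the plus strand (Rplp2), chr7:45128716-45128780 on the minus strand (Rpl13a) and chr2:180257344-180257408 on the plus strand (Rps21).
Rpl35: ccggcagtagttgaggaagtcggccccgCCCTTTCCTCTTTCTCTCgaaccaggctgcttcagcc
Rpl15: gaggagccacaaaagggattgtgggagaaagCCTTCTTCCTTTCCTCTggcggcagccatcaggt
Rpl13: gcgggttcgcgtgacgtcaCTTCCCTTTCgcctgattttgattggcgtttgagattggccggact
Rps6: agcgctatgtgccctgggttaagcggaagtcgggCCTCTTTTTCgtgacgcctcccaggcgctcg
Rplp2: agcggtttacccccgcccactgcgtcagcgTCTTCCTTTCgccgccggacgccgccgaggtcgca
Rpl13a: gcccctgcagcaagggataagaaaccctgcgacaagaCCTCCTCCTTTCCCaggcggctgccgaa
Rps21: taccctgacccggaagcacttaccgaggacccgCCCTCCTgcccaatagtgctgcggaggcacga
The run is 18 bases long in Rpl35, 17 in Rpl15, 14 in Rpl13a, 10 in Rpl13, Rps6 and Rplp2, and 7 in Rps21. Counted from the listed start as base 1, it spans the start in Rpl35, Rpl15, Rps6, Rplp2 and Rps21, and begins at base 3 in Rpl13a. In Rpl13 it lies wholly before the start, from -16 to -7, and so outside the mRNA as listed. Rps2, whose groups did not overlap either, is not printed, and its run of 8 bases lies from base 27 to base 34. The printed genes were picked and do not give the share of members with a run at the start.

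RefSeq's promoter table held 61 of the 83 members. Among them the longest such run had a median of 9 bases and reached at least 8 bases in 40 genes, 65.6%, where over 27025 promoters the median was 5 bases and 23.4% reached 8. Such a run may lie wholly before or after the start, so these shares do not count tracts at the 5' end of the mRNA. In the window from 250 bases before to 50 bases after the start, searched on both strands, CCGGAAG, a core of ETS factor sites, was in 24 of the 61 (39.3%; 9.12% of all promoters). GGGCGG, a core of Sp1 sites, was in 35 (57.4%; 35.9% of all promoters), AAGATGGC, a core of YY1 sites, in 4 (6.56%; 2.88% of all promoters) and TATAAA in 6 (9.84%; 14.2% of all promoters). No searched motif holds another. These matches describe the letters of the windows only, and no library measured a factor there.

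Among small subunit proteins at the mRNA path, Rps3, which sits at the mRNA entry beside Rps2, had a log2 fold change of -0.32 (SE 0.12). It had 793, 859, 733, 669 and 550 CPM in EGF and 845, 888, 851, 951 and 975 CPM in Saline libraries, with only EGF replicate 2 inside the Saline range. Rpsa, a small subunit protein also described as a laminin receptor precursor, was at 2010.1 ± 249 CPM in EGF and 2415 ± 162 CPM in Saline libraries (SD, n = 5 each; log2 fold change -0.26, SE 0.10). Rps6, the target of S6 kinases downstream of growth factor signals, had 488, 540, 464, 449 and 550 CPM in EGF and 527, 557, 541, 562 and 598 CPM in Saline libraries. For Rps6 the EGF libraries 2 and 5 were inside the Saline range, with a log2 fold change of -0.16 (SE 0.08). Rps27a, made as a fusion with ubiquitin, had the second smallest unadjusted p of all members (0.00951), with 412 ± 53.3 CPM in EGF and 519 ± 52.9 CPM in Saline libraries (SD, n = 5 each) and a log2 fold change of -0.33 (SE 0.11).

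Members known from bone marrow failure include Rps19 and Rps14. Rps19, the gene most often mutated in Diamond-Blackfan anaemia, had 353, 382, 304, 277 and 216 CPM in EGF and 374, 393, 357, 424 and 427 CPM in Saline libraries. Its log2 fold change was -0.37 (SE 0.14), and only EGF replicate 2 was inside the Saline range. Rps14, lost in the human 5q- syndrome, had 305, 334, 271, 245 and 397 CPM in EGF and 341, 342, 328, 364 and 341 CPM in Saline libraries, a log2 fold change of -0.14 (SE 0.12), and of -0.25 without EGF replicate 5. EGF replicate 4 was the lowest and EGF replicate 5 the highest of all 10 libraries for it.

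A paralog pair could be set side by side within the small subunit. Rps27 was at 159 ± 32.9 CPM in EGF and 195 ± 13.3 CPM in Saline libraries (SD, n = 5 each), and its paralog Rps27l, a p53 target, at 18.3 ± 4.38 CPM in EGF and 25.5 ± 4.22 CPM in Saline libraries (SD, n = 5 each). Their log2 fold changes were -0.30 (SE 0.13) and -0.47 (SE 0.21), the groups overlapped for both, without EGF replicate 5 the values were -0.20 and -0.34, and the difference between the paralogs was not tested. Rps4x, the X-linked form of its protein, had a log2 fold change of -0.17 (SE 0.11). The pseudogene Rps4l had between 5 and 32 counts in EGF and between 26 and 63 counts in Saline libraries, and its log2 fold change of -1.00 (SE 0.48) was the lowest of all members.

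In the large subunit, the stalk proteins, which draw elongation factors to the ribosome, had fitted values from -0.46 to -0.05, and the differences between them were not tested. Rplp0, the base of the stalk, had 1193, 1358, 1179, 854 and 618 CPM in EGF and 1390, 1391, 1265, 1537 and 1550 CPM in Saline libraries, a log2 fold change of -0.46 (SE 0.19). Only EGF replicate 2 reached the Saline range. Rplp1 had a log2 fold change of -0.23 (SE 0.12) with 723 ± 96.4 CPM in EGF and 846 ± 93.6 CPM in Saline libraries (SD, n = 5 each). Rplp2 had 930, 1083, 846, 823 and 1522 CPM in EGF and 1025, 1023, 997, 1215 and 1127 CPM in Saline libraries, so that EGF replicate 5 was above every other library. Its log2 fold change was -0.05 (SE 0.16) with all libraries and -0.23 without EGF replicate 5.

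Rpl5 and Rpl11, which with 5S ribosomal RNA form the particle that binds Mdm2 and so ties ribosome assembly to p53, had log2 fold changes of -0.02 (SE 0.14) and -0.11 (SE 0.09), and without EGF replicate 5 of -0.15 and -0.17. Rpl5 was at 718, 844, 730, 674 and 1097 CPM in EGF and 701, 784, 819, 899 and 918 CPM in Saline libraries, with EGF replicate 5 the highest of all. Exons on the other strand cover 24.3% of its exonic bases. Rpl11 ranged from 247 to 321 CPM in EGF and from 270 to 321 CPM in Saline libraries. Its EGF replicates 3 and 4, at 258 and 247 CPM, lay below every Saline library. Rpl3, a protein of the catalytic centre, was at 997 ± 91.9 CPM in EGF and 1098 ± 51.6 CPM in Saline libraries (SD, n = 5 each; log2 fold change -0.14, SE 0.09). Rpl10, X-linked and among the last proteins to join the large subunit, had a log2 fold change of -0.39 (SE 0.18), and of -0.23 without EGF replicate 5, in which it stood at 210 CPM beside 369 to 479 CPM in the other EGF libraries and 457 to 550 CPM in the Saline libraries.

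Rpl22, which is needed for normal T cell development in mice but not for survival, was at 592, 649, 604, 577 and 916 CPM in EGF and 638, 700, 693, 719 and 735 CPM in Saline libraries. EGF replicates 1, 3 and 4 were below every Saline library and EGF replicate 5 above every one (log2 fold change -0.06, SE 0.13), and without that library the log2 fold change was -0.20 (SE 0.06). Rpl38, known from its effect on Hox mRNA translation in mouse embryos, had a log2 fold change of -0.24 (SE 0.12), with 138 to 204 CPM in EGF and 172 to 216 CPM in Saline libraries. Of the other large subunit genes with small p, Rpl9 had a log2 fold change of -0.36 (SE 0.12), with 268 ± 48.6 CPM in EGF and 343 ± 16.8 CPM in Saline libraries (SD, n = 5 each). Rpl18 had one of -0.25 (SE 0.09), with 198 to 269 CPM in EGF and 261 to 281 CPM in Saline libraries. For Rpl9 and Rpl18 the groups overlapped through EGF replicate 2 alone.

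A log2 fold change above 0 was fitted for 4 members, among them Rpl13a, Rpl19 and Rpl23a, each of which was highest in EGF replicate 5. Rpl13a, known in human cells for silencing inflammatory mRNAs when released from the ribosome, had 26.5, 25.1, 21.7, 27.4 and 66.0 CPM in EGF and 19.5, 24.8, 25.8, 20.2 and 22.0 CPM in Saline libraries, a log2 fold change of 0.57 (SE 0.29; edgeR adjusted p = 0.553). It had between 150 and 471 counts per library, and 35.4% of its exonic bases are shared with other genes on the same strand. Rpl19, a large subunit protein, had 338, 391, 322, 274 and 674 CPM in EGF and 337, 373, 349, 399 and 424 CPM in Saline libraries. Its log2 fold change was 0.09 (SE 0.21), and -0.19 without EGF replicate 5. Rpl23a had one of 0.01 (SE 0.10), a value that turned below 0 when counts were scaled by library size or by the upper quartile. It is a neighbour of Rpl35 at the tunnel exit, and exons on the other strand cover 59.7% of its exonic bases.

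Members scattered far more in EGF replicate 5 than in any other library. The SD over the 79 genes of the log2 difference from the Saline mean was 0.23, 0.12, 0.14, 0.26 and 0.87 in EGF replicates 1 to 5, against 0.08, 0.11, 0.10, 0.06 and 0.08 in Saline replicates 1 to 5. Other genes above 50 CPM scattered as widely there, with an SD of 0.84 in EGF replicate 5, beside 0.17 to 0.27 in the other EGF libraries and 0.11 to 0.16 in Saline libraries. In EGF replicate 5, 15 members (10 small, 5 large) were over 2-fold below their Saline mean and 20 (5 small, 15 large) were above it. Rps21, a small subunit protein named after its values were seen, had 80 counts in EGF replicate 5, between 1169 and 1887 in the other EGF libraries and between 1841 and 2210 in Saline libraries, so that it stood at 4.36% of its Saline mean. Rps26, at the mRNA exit, and Rps13, both also named after their values were seen, stood at 26.5% and 24.9%. At the other end Rpl13a stood at 294% and Rpl19 at 179% of the Saline mean. The ratio of large to small subunit counts was 1.44, 1.46, 1.44, 1.51 and 1.76 in EGF replicates 1 to 5, against 1.45, 1.45, 1.47, 1.45 and 1.42 in Saline replicates 1 to 5. Outside EGF replicate 5 the subunits thus kept nearly the same ratio in both groups (1.46 ± 0.03 in the other 4 EGF libraries and 1.45 ± 0.02 in 5 Saline libraries, SD).

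**Figure D2:**
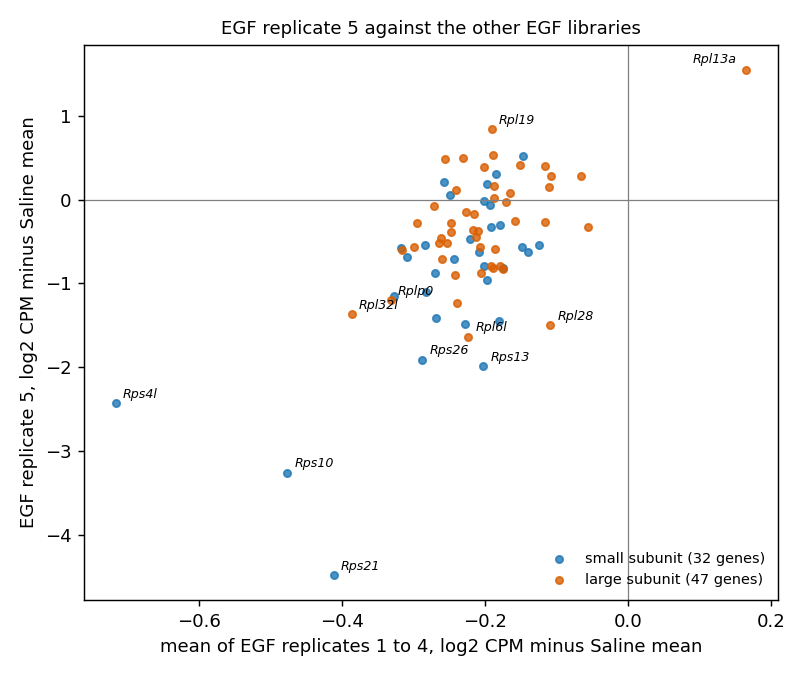
Each tested gene's log2 CPM (prior count of 2) minus its Saline mean, in EGF replicate 5 (vertical) against the mean of EGF replicates 1 to 4 (horizontal), for 32 small and 47 large subunit genes. The other 4 EGF libraries keep most members between -0.4 and 0, while EGF replicate 5 spreads them over several log2 units; Rps10 has 0 counts there, so its position depends on the prior count.

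Single members were also compared with the class as a whole. When each library was scaled to its summed member counts and the whole table refitted, edgeR called 0 of 79 members (0.0% of all genes). The split was 49 below 0 and 30 above, with medians of -0.10 for the small and -0.03 for the large subunit, and a median of 0.20 over all genes on this scale. Only Rpl13a had an unadjusted p under 0.05, on the higher side (0.79, SE 0.31; adjusted p = 0.198), where 21.2% of all genes were higher and 0.342% lower. Without EGF replicate 5 the split was 39 below and 40 above 0, with medians of -0.01 for the small and 0.01 for the large subunit, and Rpl13a had a log2 difference of 0.37 (edgeR adjusted p = 0.139). Scaling to the members' own sum centres them near 0, so such splits and medians follow largely from the scaling.

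Between genes, levels per length spanned a wide range. Per kilobase of transcript, Rplp1 was at 1449 CPM in EGF and 1696 CPM in Saline libraries, and Rpsa at 1037 CPM in EGF and 1246 CPM in Saline libraries. The lowest protein-coding genes tested were Rps10, at 1.40 CPM per kilobase in EGF and 2.53 in Saline libraries, and Rpl13a, at 31.8 in EGF and 21.5 in Saline libraries. Rps10 had between 0 (EGF replicate 5) and 15 counts in EGF and between 15 and 21 in Saline libraries, and 20.6% of its exonic bases are shared on the same strand. Its log2 fold change of -0.84 (SE 0.64), or -0.53 without EGF replicate 5, rests on those few counts. Across the class 27 members share some exonic bases with another gene on the same strand, 18 with one on the other strand, and processed copies elsewhere in the genome can take or lend reads, so low totals such as these are uncertain as expression. Rows for ribosomal pseudogenes whose symbols end in ps held 0.0211% to 0.0312% of counts in EGF and 0.0247% to 0.0270% in Saline libraries.

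The filter on low counts left out 4 members, all of the large subunit. Rpl10l, a testis form of Rpl10, had 0 counts in all 10 libraries, and 3 counts, the limit that a count of 0 allows, are 0.354 to 0.428 CPM in these libraries. Rpl39l, another testis form, had 0 counts in all EGF libraries and 3 counts in each of Saline replicates 3 and 5. Rpl3l, the heart and skeletal muscle form of Rpl3, had 0 to 10 counts in EGF and 4 to 10 in Saline libraries. Rpl24, the gene of the Belly spot and tail mouse mutant, had 6 to 18 counts in EGF and 2 to 11 in Saline libraries, and 47.0% of its exonic bases are shared with another gene on the same strand. Pseudogene Rpl6l, which passed the filter, had 5 to 25 counts in EGF and 19 to 24 in Saline libraries (log2 fold change -0.43, SE 0.41, and -0.21 without EGF replicate 5), and Rpl32l had 3 to 28 counts in EGF and 14 to 21 in Saline libraries.

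Among other protein-coding genes the fold change moved with transcript length. The median transcript length was 869 bases over the 76 protein-coding members tested and 2833 bases over 11207 other protein-coding genes. Among those others, the median log2 fold change was -0.18 under 700 bases (270 genes), -0.14 from 700 to under 1000 (581), -0.12 up to 1500 (1128), -0.06 up to 2500 (2717), -0.02 up to 4000 (3348) and 0.05 from 4000 bases on (3163). Members in the first 4 of these classes had medians of -0.27, -0.25, -0.27 and -0.17 (25, 27, 17 and 7 genes, pseudogenes included), each lower than that of the other genes. In the remaining classes there were only 2 and 1 members, with medians of -0.32 and -0.40, too few to read a trend with length among the members. By library, other mRNAs under 1000 bases had a median log2 difference from the Saline mean of -0.08, -0.01, -0.14, -0.16 and -0.60 in EGF replicates 1 to 5, against -0.07, -0.04, 0.01, 0.07 and 0.04 in Saline replicates 1 to 5. EGF replicates 3 to 5, the lowest in ribosomal protein genes, were also the lowest in other short mRNAs, while Saline replicate 3, with 63 of 79 members below the Saline mean, was at 0.01. The part of length in the members' values was not tested.

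**Figure D3:**
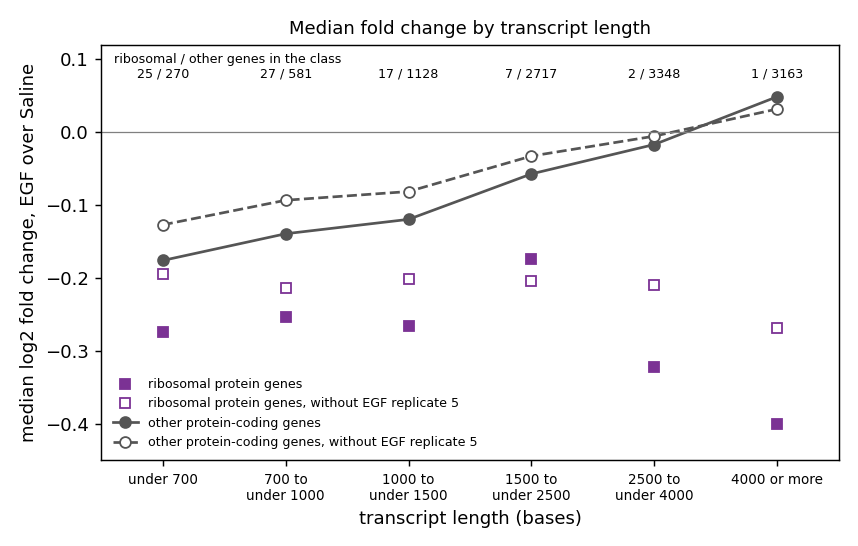
Median log2 fold change (EGF over Saline, edgeR) by class of transcript length in bases, for ribosomal protein genes (squares, all 79 tested) and other protein-coding genes (circles), with all 10 libraries (filled) and without EGF replicate 5 (open); the number of genes in each class is written at the top. The other genes run from -0.18 in the shortest class to 0.05 in the longest, and the ribosomal protein genes lie below them in every class.

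Other library measures also differed between the groups. Malat1, a nuclear noncoding RNA, took 0.521%, 0.387%, 0.908%, 0.905% and 1.62% of counts in EGF replicates 1 to 5, against 0.444%, 0.421%, 0.437%, 0.336% and 0.342% in Saline replicates 1 to 5. EGF replicates 3, 4 and 5, the libraries lowest in ribosomal protein genes, were the highest in Malat1. Genes of the mitochondrial genome took 8.59%, 8.38%, 9.43%, 10.04% and 7.72% of counts in EGF replicates 1 to 5, against 7.31%, 7.43%, 7.30%, 6.65% and 5.89% in Saline replicates 1 to 5. The groups did not overlap, but EGF replicate 5, the lowest in ribosomal protein genes, was the lowest EGF library here. Of 7 nuclear noncoding RNAs tested, Malat1 among them, 2 lay below 0 and 4 had an unadjusted p under 0.05 on the higher side, with a median log2 fold change of 0.70 (0.39 without EGF replicate 5), and 0 were called. The part of RNA quality or of the share of nuclear RNA in the members' values was not tested.

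The rest of the translation machinery was described from lists, none of whose genes were called, and is read beside the shares over all genes tested (51.5% below 0, 2.73% lower at an unadjusted p under 0.05). Of 37 translation factors, 25 lay below 0 on the log2 scale, their median was -0.15 (-0.16 without EGF replicate 5), and 7 had an unadjusted p under 0.05 on the lower side. Eif5a, which relieves stalled ribosomes, was at 429 ± 86.3 CPM in EGF and 568 ± 44.7 CPM in Saline libraries (SD, n = 5 each; log2 fold change -0.40, SE 0.13), and Eif3l, a subunit of initiation factor 3, at 166 ± 24.5 CPM in EGF and 208 ± 10.1 CPM in Saline libraries (SD, n = 5 each; log2 fold change -0.33, SE 0.11). Of 51 genes listed for ribosome biogenesis, 31 lay below 0, and their median was -0.05 (-0.11 without EGF replicate 5). Most of them act in making and processing ribosomal RNA, but the list also holds the transcription factor Myc. On the lower side 3 had such a p, Myc among them. Mybbp1a, a nucleolar protein, had a log2 fold change of -0.21 (SE 0.07), and Nhp2, of the pseudouridylation complex, one of -0.27 (SE 0.10). Of 24 other mRNAs known for a 5' pyrimidine tract, several of them also translation factors, 16 were below 0, with a median of -0.11 (-0.17 without EGF replicate 5).

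A list of 10 related genes that the symbol pattern does not match held other ribosomal proteins, paralogs and Rps19bp1, which encodes a binding partner of Rps19, and 6 of them were below 0 with a median of -0.18. Rps3a1 had a log2 fold change of -0.19 (SE 0.09). Rack1, a signalling scaffold on the small subunit, had one of -0.47 (SE 0.28), and of -0.25 without EGF replicate 5. Mitochondrial ribosomal proteins, a separate set encoded in the nucleus, had a median of -0.21 over 77 tested genes, 55 of them below 0 and 0 with such a p on the lower side. That median, which was -0.17 without EGF replicate 5, is close to the ones of the cytosolic subunits. The median transcript length of this set was 1316 bases. Other protein-coding genes from 1000 to under 1500 bases had a median of -0.12, with 62.9% below 0. The part of length in this likeness was not tested. Noncoding hosts of small nucleolar RNAs, 10 tested, were split with 5 below 0 and a median of 0.01.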

How the data were processed

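The 10 HSPC libraries, 5 EGF and 5 Saline, were made per the labels' protocols from RNA isolated with a Qiagen RNeasy Micro Kit, depleted of ribosomal RNA and amplified by PCR within a Clontech workflow. Sequencing on a NextSeq500 is stated by the series' design text. Demultiplexing with bcl2fastq 2.17, the aligner STAR and the build names GRCm38 and mm10 are listed by the submitters' processing notes. How reads were counted, with which strand setting and annotation, is not given in the sources used here. The authors deposited whole-number counts of reads per gene without normalization, 1 file per library. Since PCR copies count as reads, intervals and floors cover counting error only. Positions, transcript lengths (the longest principal transcript, or where none was marked the median over the gene's transcripts, protein-coding ones first) and exon overlaps came from GENCODE M21 for 55394 of 55573 genes.

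The test was edgeR 4.0.16 (R 4.3.3) on all 10 libraries: TMM scaling, filterByExpr (minimum count 10), a quasi-likelihood F test for EGF over Saline, and Benjamini-Hochberg adjustment over all 12874 genes kept, with a threshold of 0.05. A fit relative to the members used the summed member counts as library size. CPM are relative to the summed counts of the genes kept, scaled by TMM, and log2 CPM have a prior count of 2. Chi-square per degree of freedom was at least 5.94 for every pair of libraries, so none was a plain re-sequencing of another. The lowest pair was EGF replicate 1 with Saline replicate 2. This measure cannot tell separate libraries of the same RNA from libraries of different mice. Deviations of same-numbered EGF and Saline libraries correlated between -0.08 and 0.02, so the numbers were not taken as pairs.

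Genes were named by a rule: a fixed set of well-studied members, the members of each subunit with the smallest p and the most extreme fold changes, the same for the fit relative to the members, the members the filter left out, and leading genes of each list. Exceptions are marked. Other members are counted without being named, and some that the rule takes are not reported here. Members and lists were chosen with earlier results of these data known. Alternatives were other scalings and filters, DESeq2 1.42.0, limma-voom (limma 3.58.1) with and without quality weights, a robust fit, the replicate number as a block, each library left out, and EGF replicates 3 and 4, or 3 to 5, left out.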

Additional observations from a re-analysis of the deposited data

Results flagged for a closer look

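Of 70 checks for a library far from the rest of its group of 5, 5 were positive, where chance gives about 1 in 20, and 3 of these concerned EGF replicate 5. There the ratio of large to small subunit counts was 1.76. Rpl13a stood at 66.0 CPM and Rpl22 at 916 CPM, each far above the other 4 EGF libraries. In the Saline group, replicate 4 was the highest library for Rpl35, at 357 CPM, and for Rpl8, at 1155 CPM, away from the other 4 libraries.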

How the results depend on the processing

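Under each of 23 alternatives 0 members were called in either direction, and the smallest adjusted p of any member was 0.0674 (Rpl35, DESeq2). The medians of both subunits stayed below 0 under all of them, between -0.40 and -0.07 for the small and between -0.29 and -0.07 for the large subunit. The medians were nearest to 0 without EGF replicates 3, 4 and 5 (-0.075 for the small and -0.072 for the large), the libraries lowest in the members. Over all genes edgeR called 1 higher and 0 lower. The counts were 36 and 20 by DESeq2 and 8 and 4 by limma-voom with quality weights. With library size scaling 0 genes were higher, and likewise 0 without EGF replicates 3 and 4. With 1 library left out at a time, between 0 and 4 genes were higher and between 0 and 4 lower. With the replicate number as a block, 0 genes were called higher and 0 lower, and the medians were -0.33 and -0.25; that fit changed no call of a member. Of 30 tested members named by rule, 6 changed direction under some alternative, with values near 0 in most. Rpl23a turned to -0.00060 with library size scaling, -0.017 with the upper quartile, -0.0041 with no filter, -0.10 with quality weights and -0.053 without EGF replicates 3 to 5, and lay between -0.071 and 0.051 with 1 library left out. Rpl19 turned to -0.17 with quality weights and -0.049 without EGF replicates 3 to 5, and lay between -0.19 and 0.20 with 1 library left out. Without EGF replicates 3 and 4, Rpl5 was at 0.10, Rplp2 at 0.12, Rpl22 at 0.041 and Rps14 at 0.0037. With 1 library left out, Rpl5 lay between -0.15 and 0.039 and Rplp2 between -0.23 and 0.023. The causes of these changes were not tested. Standard errors of the members' log2 fold changes ran from 0.08 to 0.64, and 8 members had under 100 counts in every library.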
